A study of Mus musculus with 12 samples.

Results

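This comparison set the vessels of the trunk against the vessels near the heart in the mouse. The trunk side held descending aorta, the aortic segment that runs down the back of the trunk, and Superior Mesenteric Artery, which carries blood from the abdominal aorta to the gut. The near-heart side held ascending aorta, the segment that leaves the left ventricle, and coronary artery, which feeds the heart wall. Each vessel had 3 arrays, so each side had 6 of the 12 arrays, and no array was left out. All mice were untreated, wild-type, on the C57BL/6 background and 8 weeks old. The submitters' aim was to find expression patterns tied to the embryonic origin of a vessel. Replicates are named biological in the labels, without a word on 1 animal or a pool for each array, so p-values rest on the spread of these samples, which may be technical. A gene's side difference was the mean of the 2 trunk vessel means minus the mean of the 2 near-heart vessel means, in log2 units, where 1 unit is a 2-fold difference. Vessels were said to agree on a gene when both trunk means lay above, or both below, both near-heart means.

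The wall of a vertebrate artery draws its smooth muscle from different embryonic sources along the body. Neural crest and second heart field supply the aortic root and the ascending aorta, the proepicardium supplies the coronary arteries, somite-derived mesoderm supplies the dorsal wall of the descending aorta, and splanchnic mesoderm and mesothelium supply the gut arteries. Hox genes encode homeodomain transcription factors that lie in 4 clusters, HoxA to HoxD, and mark positions from head to tail in the embryo. Within a cluster, genes with low paralogue numbers are switched on farther forward than those with high numbers, and adult mesenchymal and smooth muscle cells keep part of that code.

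Transcripts of other cell types were present in some arrays and are given before the results. The shared cardiomyocyte list averaged between 9.31 and 9.63 in the 3 coronary artery arrays, 6.01 in descending aorta replicate 1 and between 4.6 and 5.29 in the other 8 arrays. Genes of B cells and plasma cells averaged 7.97 in ascending aorta replicate 1, 6.74 and 6.42 in Superior Mesenteric Artery replicates 2 and 3, and at most 4.88 elsewhere. The pancreatic acinar list stood at 9.14 in the third Superior Mesenteric Artery array and at 4.79 or less elsewhere. Smooth muscle contractile genes, the defining genes of an arterial wall, averaged between 6.19 in ascending aorta replicate 1 and 8.95 in Superior Mesenteric Artery replicate 1. These are bulk samples, in which fewer cells of a type and less RNA per cell cannot be told apart. Detection calls were not used, so whether a low level lies above background is not known.

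**Figure D1:**
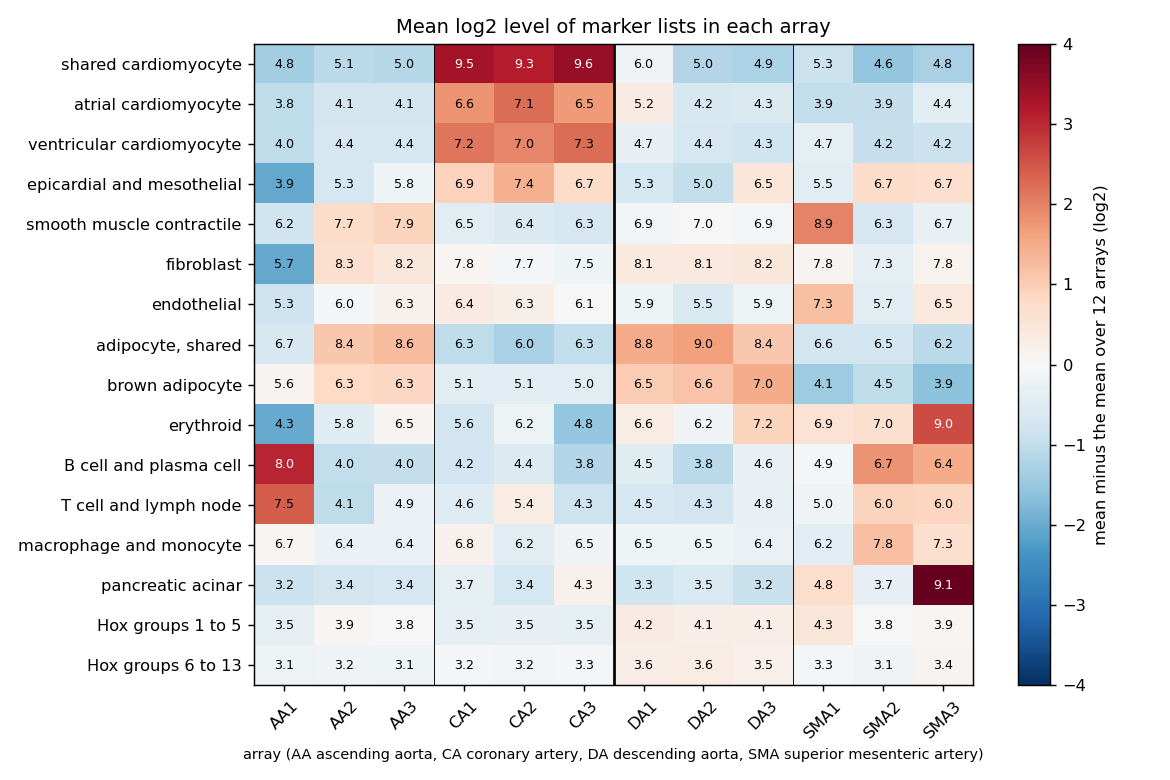
Mean log2 level of 16 marker lists (rows) in each of the 12 arrays (columns), printed in each cell and coloured by its distance from the list's mean over all arrays; the thick line separates near-heart from trunk arrays. The cardiomyocyte lists stand out in the 3 coronary artery arrays, and the B cell list in ascending aorta replicate 1.

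Few genes separated the trunk vessels from the near-heart vessels, and the 2 directions differed in kind. The genes higher in the trunk included 3 Hox genes (Hoxb5, Hoxb6 and Hoxc8), the complement gene C7 and a handful of matrix and signalling genes. Lower in the trunk were genes that were highest in coronary artery in nearly every case, 29 of them from the 3 cardiomyocyte lists. Of 19938 genes tested with limma, 20 were higher in the trunk (0.1% of genes tested) and 123 were lower (0.617%) at an adjusted p under 0.05. The vessels agreed for 15 of the 20 higher genes (0.0752% of all genes) and for 35 of the 123 lower genes (0.176%). Agreement alone, without the test, held for 13.2% of all genes in the higher direction and 10.8% in the lower direction, so it is common by itself. The median side difference over all genes was 0.01.

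These p-values rest on the spread among arrays of the same vessel, so they concern these 4 vessels and not trunk arteries in general. When the vessel was entered as a random block, limma called 0 genes, against 564 at an unadjusted p under 0.05. That fit used a consensus correlation over all genes (0.121) with arrays still the units, so it did not test vessels as the replicates. With the 2 side means only and no block, limma also called 0 genes, against 935 at an unadjusted p under 0.05. When the trunk was compared with ascending aorta alone, without coronary artery, limma again called 0 genes, against 921 at an unadjusted p under 0.05.

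Among the 15 genes on which the vessels agreed in the higher direction, Hoxb6 and Hoxb5 were the Hox genes with the clearest separation of vessels. Hoxb6, a homeobox gene of the HoxB cluster, read 6.22, 5.70 and 5.67 in descending aorta and 5.52, 4.46 and 5.88 in Superior Mesenteric Artery. It read 4.49, 3.92 and 4.12 in ascending aorta and 3.92, 3.81 and 3.29 in coronary artery. All trunk arrays but Superior Mesenteric Artery replicate 2 lay above all near-heart arrays. The side difference of Hoxb6 was 1.65 ± 0.23 (SE), a 3.13-fold difference (limma adjusted p = 0.00362), and it passed the threshold in each of the 12 fits that left out 1 array.

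Hoxb5, its neighbour in the cluster, read 5.84, 5.17 and 5.28 in descending aorta and 6.27, 4.33 and 4.66 in Superior Mesenteric Artery. It read 3.41, 4.19 and 3.58 in ascending aorta and 2.83, 3.65 and 3.69 in coronary artery. The 6 trunk arrays did not overlap the 6 near-heart arrays, and the smallest of the 4 differences between a trunk and a near-heart vessel mean was 1.36. The side difference of Hoxb5 was 1.70 ± 0.31 (limma adjusted p = 0.022). It passed in 6 of the 12 fits with 1 array left out, with limma adjusted p between 0.00961 and 0.0828. Both genes had nearly the same difference in the aorta and in the branch arteries. Descending minus ascending aorta was 1.71 for Hoxb5 and 1.68 for Hoxb6, and Superior Mesenteric Artery minus coronary artery was 1.70 and 1.61. The difference between these 2 differences was 0.01 ± 0.62 for Hoxb5 and 0.07 ± 0.47 for Hoxb6 (limma adjusted p = 0.997 and 0.953), which does not show that they are equal.

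Hoxc8, a homeobox gene of the HoxC cluster, differed between the trunk vessels. It read 5.51, 4.98 and 4.98 in descending aorta, against 2.71, 2.75 and 4.01 in Superior Mesenteric Artery. The 6 near-heart arrays lay between 2.63 and 3.13, with a median of 2.83. Superior Mesenteric Artery thus overlapped the near-heart range in replicates 1 and 2, and only replicate 3 stood above it. The vessels no longer agreed on Hoxc8 without that array, in which pancreatic acinar genes were also high, and the part of that tissue was not tested. Hoxc8 had a side difference of 1.31 ± 0.22 (limma adjusted p = 0.0125), and its difference was 2.04 ± 0.44 larger in the aorta than in the branch arteries (limma adjusted p = 0.0221). Without descending aorta the difference was 0.31 (limma adjusted p = 0.807).

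**Figure D2:**
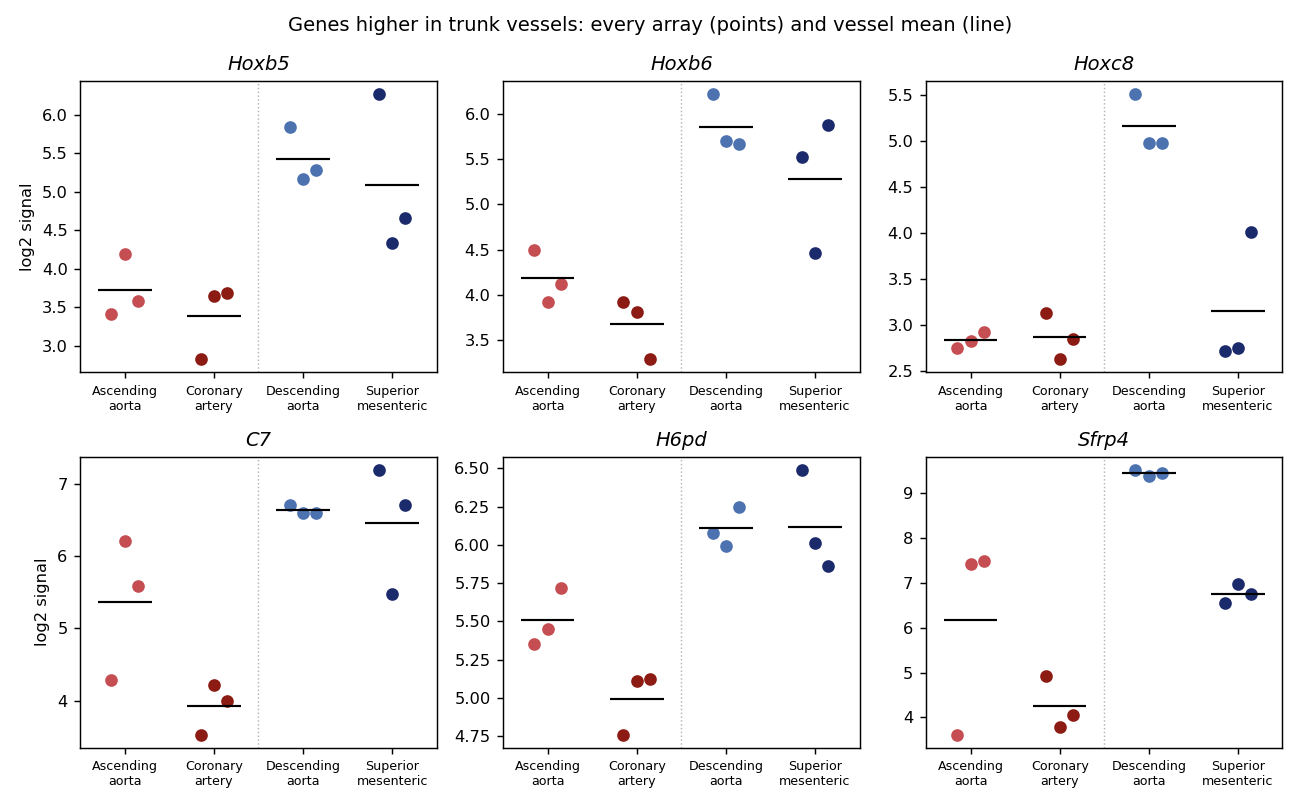
Log2 signal (vertical axis, a separate scale for each gene) of 6 genes in every array by vessel; points are arrays in replicate order from left to right, lines are vessel means, and the dotted line divides near-heart from trunk vessels. Hoxb5 and H6pd show no overlap between sides, Hoxc8 is high in descending aorta, and Sfrp4 is low in ascending aorta replicate 1.

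The HoxB cluster as a whole leaned to the trunk. Of 9 measured HoxB genes, 8 had both trunk means above both near-heart means, 2 passed the threshold, and the median side difference was 0.40. In the HoxA cluster 4 of 10 genes agreed in the higher direction, 0 passed, and the median was 0.28. In the HoxC cluster 4 of 9 agreed, 1 passed, and the median was 0.20. In the HoxD cluster 0 of 9 agreed in the higher direction, and the median was -0.04. Over all 37 measured Hox genes, 16 agreed in the higher direction (43.2%, against 13.2% of all genes), 4 agreed in the lower direction, and 3 passed. Hox genes share clusters and can share regulation, so they are not independent of each other.

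The differences also varied with the paralogue number. Of 10 genes in groups 5 to 8, 10 had a side difference above 0, 7 agreed in the higher direction and 3 passed, with a median of 0.75. Of 11 genes in groups 1 to 4, 7 agreed and 0 passed, with a median of 0.18. Of 16 genes in groups 9 to 13, 2 agreed in the higher direction and 4 in the lower, with a median of -0.04. Apart from Hoxd9, the genes of groups 9 to 13 had all vessel means below the lowest array median (4.038), as did some genes of the other groups. Signal above background was not measured, so a median near 0 at these levels is uncertain. This division of the paralogue groups was chosen after the values were seen. By the lists set for the analysis, 1 of 14 genes in groups 1 to 5 was higher (median 0.40) and 2 of 23 in groups 6 to 13 (median 0.10).

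Further Hox genes came near the threshold without passing it, and they are named here after their values were seen. Hoxa5 read between 4.65 and 5.42 in the trunk (median 5.05) and between 2.56 and 4.63 near the heart (median 3.88), with no overlap of arrays (side difference 1.25 ± 0.28, limma adjusted p = 0.0774). Hoxb2 had a side difference of 0.69 ± 0.15 (limma adjusted p = 0.0685) and Hoxa7 0.72 ± 0.16 (limma adjusted p = 0.0841). Hoxb2 and Hoxb9 also had no overlap, with trunk arrays from 4.11 to 4.92 and from 3.57 to 3.85. In those genes the near-heart arrays ran from 3.53 to 3.97 and from 3.07 to 3.57. Hoxc6, the neighbour of Hoxc8, showed no agreement, because it was high in descending aorta (4.94, 4.83 and 4.37) and low in Superior Mesenteric Artery (2.05, 2.04 and 2.87). Its side difference was 0.78 ± 0.17 (limma adjusted p = 0.0621).

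**Figure D3:**
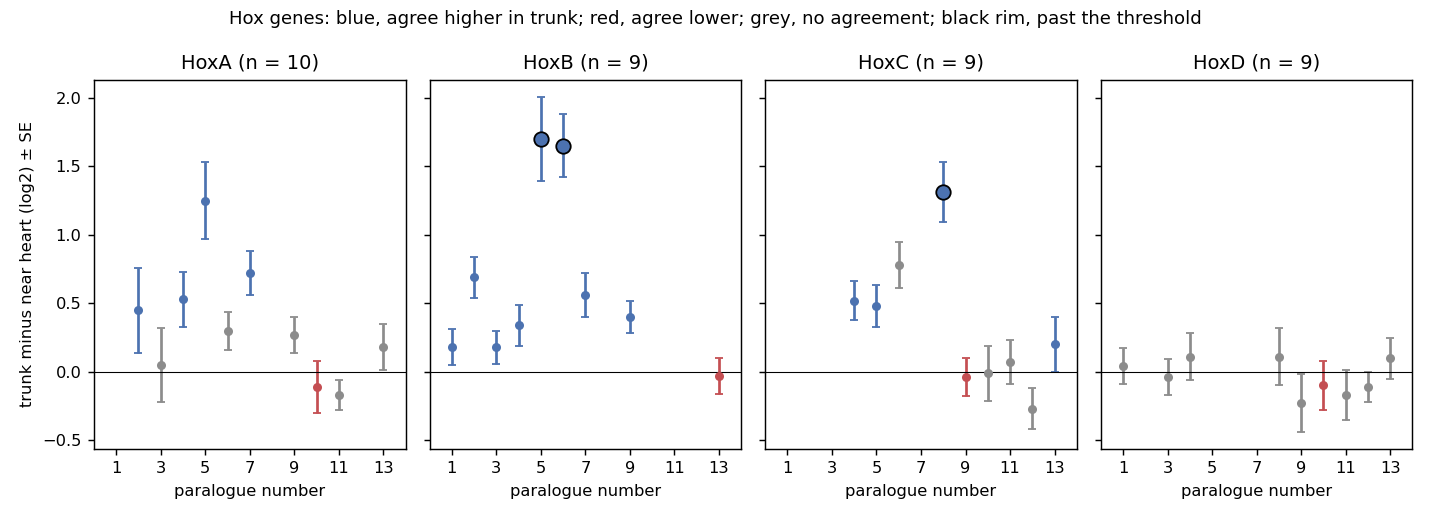
Side difference (trunk minus near heart, log2) ± SE of the 37 measured Hox genes against paralogue number, in a panel for each cluster. Blue points mark genes on which the vessels agreed in the higher direction, red points in the lower direction and grey points no agreement; large points with a black rim passed the threshold (Hoxb5, Hoxb6 and Hoxc8).

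Cofactors and regulators of Hox genes did not pass. In the list of Hox cofactors and upstream regulators 0 of 14 genes passed limma's threshold, 0 of 14 had an unadjusted p under 0.05, and the median was 0.07. In the list for retinoic acid signalling, the pathway that induces Hox genes in the embryo, 0 of 18 passed, 2 had an unadjusted p under 0.05, and the median was 0.02. Rxrg, a retinoid X receptor gene, had a side difference of -0.70 ± 0.17 (limma adjusted p = 0.129).

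Outside the Hox clusters, C7 had the widest separation of vessel means among the 15 genes, and H6pd passed with any single array left out. C7, a component of the membrane attack complex of complement, read 6.71, 6.59 and 6.6 in descending aorta and 7.19, 5.47 and 6.71 in Superior Mesenteric Artery. It read 4.29, 6.21 and 5.59 in ascending aorta and 3.53, 4.22 and 4.0 in coronary artery. Ascending aorta lay between coronary artery and the trunk, and its replicates 2 and 3 overlapped Superior Mesenteric Artery replicate 2. C7 had a side difference of 1.90 ± 0.33 (limma adjusted p = 0.0165). It passed in 6 of the 12 fits with 1 array left out, with limma adjusted p between 0.00427 and 0.0601.

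H6pd, the hexose-6-phosphate dehydrogenase that makes NADPH in the endoplasmic reticulum, read 6.08, 5.99 and 6.25 in descending aorta and 6.49, 6.01 and 5.86 in Superior Mesenteric Artery. It read 5.35, 5.45 and 5.72 in ascending aorta and 4.76, 5.11 and 5.12 in coronary artery. The sides did not overlap. H6pd had a side difference of 0.86 ± 0.14, a 1.82-fold difference (limma adjusted p = 0.0118), and it passed in each of the 12 fits with 1 array left out.

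In Lgi2, Cadm3 and Ak8 both trunk vessels also reached similar levels. Lgi2, a secreted protein of the leucine-rich glioma-inactivated family, lay between 5.31 and 6.01 in the trunk (median 5.84). It lay between 3.66 and 5.41 near the heart (median 4.06), with a side difference of 1.34 ± 0.27 (limma adjusted p = 0.0463). In ascending aorta Lgi2 read 3.66, 5.41 and 5.22, so replicate 2 lay above the lowest trunk array and replicate 3 close to it. Without ascending aorta replicate 1 the side difference was 1.06, and the vessels still agreed. Cadm3, a cell adhesion molecule of the immunoglobulin family, lay between 4.49 and 5.39 in the trunk and between 4.05 and 4.46 near the heart, without overlap (0.87 ± 0.18, limma adjusted p = 0.0474). Ak8, an adenylate kinase, lay between 3.46 and 3.81 in the trunk and between 2.57 and 3.15 near the heart, without overlap (0.74 ± 0.14, limma adjusted p = 0.0232). Among the 15 genes, 4 had no overlap of arrays: Hoxb5, Cadm3, Ak8 and H6pd. Over all genes, 0.14% had no overlap in the higher direction and 0.0802% in the lower direction. In a tighter form of agreement, with each trunk mean at least 1 unit from each near-heart mean, 3 of the 15 remained: Hoxb5, Hoxb6 and C7.

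Promoters of these genes are shown because the genes were higher together in both trunk vessels, and because a short search for binding motifs can be read in them directly. Sequences are the 250 bases before the transcription start, in the direction of the gene, from RefSeq (build GRCm38.p6). A promoter was in the table for 10 of the 15 genes. Capitals mark matches on either strand to AGGTCA, the half-site of many nuclear receptors, and in H6pd also to TGATNNAT, a motif of Hox and Pbx pairs (TGATTTAT near its start). The C7 promoter lies at chr15:5063774-5064023, that of Lgi2 at chr5:52566307-52566556 and that of H6pd at chr4:150003237-150003486, all on the minus strand.
C7: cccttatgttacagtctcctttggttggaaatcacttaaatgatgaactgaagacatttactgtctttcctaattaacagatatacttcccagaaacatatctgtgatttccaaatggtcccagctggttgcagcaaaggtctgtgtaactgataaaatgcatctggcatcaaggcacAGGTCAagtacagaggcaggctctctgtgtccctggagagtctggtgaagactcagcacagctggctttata
Lgi2: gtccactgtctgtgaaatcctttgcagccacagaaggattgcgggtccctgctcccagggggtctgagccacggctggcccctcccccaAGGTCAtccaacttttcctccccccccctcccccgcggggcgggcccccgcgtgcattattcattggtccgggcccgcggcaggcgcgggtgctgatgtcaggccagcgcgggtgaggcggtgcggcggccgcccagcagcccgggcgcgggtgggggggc
H6pd: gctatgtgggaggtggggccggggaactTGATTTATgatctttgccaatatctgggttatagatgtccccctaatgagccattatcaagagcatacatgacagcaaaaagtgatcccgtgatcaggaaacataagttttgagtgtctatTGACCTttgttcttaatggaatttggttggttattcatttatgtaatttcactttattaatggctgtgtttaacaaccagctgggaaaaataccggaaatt
In the C7 and Lgi2 promoters the match reads AGGTCA as printed, and in H6pd it reads TGACCT, the same motif on the other strand. AGGTCA was present in 4 of the 10 promoters (C7, H6pd, Lgi2 and Procr) and in 14% of all 32851 promoters of this length. TGATNNAT was present in 2 of the 10 (Fbln7 and H6pd) and in 7.68% of all promoters. In H6pd the match to AGGTCA and the match to TGATNNAT do not overlap. A match is a description of the letters and not a binding site, and with 10 promoters these counts draw no difference from the rest.

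The other genes higher in the trunk varied more between vessels or between arrays. Sfrp4, a secreted antagonist of Wnt signalling, had the largest side difference of the 15, at 2.88 ± 0.54, a 7.38-fold difference (limma adjusted p = 0.0286). It read 9.51, 9.37 and 9.45 in descending aorta, and 6.54, 6.97 and 6.75 in Superior Mesenteric Artery. It read 3.62, 7.42 and 7.48 in ascending aorta, and 4.93, 3.78 and 4.05 in coronary artery. Ascending aorta replicates 2 and 3 thus lay above all Superior Mesenteric Artery arrays. The agreement on Sfrp4 rested on ascending aorta replicate 1 and did not hold without that array. In that array the fibroblast list stood at 5.65. It was at 8.33 and 8.16 in ascending aorta replicates 2 and 3 and between 7.33 and 8.17 in the other vessels, and its part in the values of Sfrp4 was not tested.

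Fbln7, an extracellular matrix glycoprotein of the fibulin family, was high in descending aorta alone. It read 6.09, 6.04 and 6.2 there and between 3.76 and 4.63 in the other 9 arrays, so that Superior Mesenteric Artery (4.22 ± 0.11, SD, n = 3) and coronary artery (4.22 ± 0.28) had the same mean to 2 decimals. Its side difference was 1.0 ± 0.16 (limma adjusted p = 0.00999). The agreement of vessels was lost without ascending aorta replicate 1, coronary artery replicate 2 or 3, or Superior Mesenteric Artery replicate 1, and also under median centring and quantile normalization. Tgfbi, a secreted matrix protein induced by TGF-beta, was at 8.47 ± 0.061 in descending aorta, 7.88 ± 0.30 in Superior Mesenteric Artery, 7.57 ± 0.39 in ascending aorta and 7.09 ± 0.29 in coronary artery (0.84 ± 0.17, limma adjusted p = 0.0377). Cmbl, a hydrolase gene that falls outside the naming rule and was named after its values were seen, had the same order of trunk vessels, at 6.16 ± 0.13 and 5.65 ± 0.30 (0.87 ± 0.18, limma adjusted p = 0.0453).

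Nrarp, Procr and Slc25a37 were among the 7 genes for which Superior Mesenteric Artery was the highest vessel. Nrarp, a feedback regulator of Notch signalling, read 4.31, 4.31 and 4.60 there and 3.90, 3.37 and 3.51 in descending aorta, against a near-heart range of 2.98 to 3.46 (0.75 ± 0.14, limma adjusted p = 0.0307). Procr, the endothelial protein C receptor, was at 6.24 ± 0.37 in Superior Mesenteric Artery and 5.61 ± 0.25 in descending aorta, with a near-heart range of 4.51 to 5.61 (0.98 ± 0.20, limma adjusted p = 0.0474). Ascending aorta replicates 2 and 3 (5.47 and 5.61) lay within the range of descending aorta (5.42 to 5.90), and replicate 1 read 4.51. Without that replicate the side difference of Procr was 0.81, and the vessels still agreed. Slc25a37, a mitochondrial iron importer of red cell precursors, read 7.08, 7.16 and 8.49 in Superior Mesenteric Artery, between 5.87 and 6.62 in descending aorta, and between 4.90 and 6.37 near the heart (1.43 ± 0.28, limma adjusted p = 0.0386). The 3 measured genes of the erythroid list averaged between 6.21 and 8.97 in the trunk and between 4.34 and 6.47 near the heart, and also peaked in Superior Mesenteric Artery replicate 3. Their part in the difference of Slc25a37 was not tested.

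How far the 15 genes depended on single arrays differed between genes. Hoxb6, H6pd, Hoxc8 and Fbln7 passed the threshold in all 12 fits that left out 1 array. Of these, Hoxb6 and H6pd also kept the agreement of vessels in each fit, while Hoxc8 lost it in 1 fit and Fbln7 in 4. The agreement was also lost in 1 fit for Sfrp4 and in 2 for Cmbl, without coronary artery replicate 1 or Superior Mesenteric Artery replicate 3. The other 11 genes lost the threshold in 6 to 10 of the 12 fits. Of the 15, 4 passed without descending aorta replicate 3, 5 without descending aorta replicate 1 or 2, coronary artery replicate 3 or Superior Mesenteric Artery replicate 3, and 6 without coronary artery replicate 1 or 2. Of the 15, 9 passed without ascending aorta replicate 2, 10 without Superior Mesenteric Artery replicate 1, 11 without replicate 2 of that artery, 11 without ascending aorta replicate 3 and 15 without its replicate 1. Without 3 of the arrays that carried other tissue (replicate 1 of both aortic segments and replicate 3 of Superior Mesenteric Artery, with Superior Mesenteric Artery replicate 2 and coronary artery kept) 5 passed, and the vessels still agreed on 3 of them: Hoxb6, Cadm3 and H6pd.

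The pairs of vessels show where the 15 genes differed. Coronary artery was the lowest vessel for 11 of them and ascending aorta for 4, while descending aorta was the highest for 8 and Superior Mesenteric Artery for 7. Against coronary artery, 9 of the 15 were higher in descending aorta (1.61% of all genes) and 9 in Superior Mesenteric Artery (0.527% of all genes). Against ascending aorta, 2 were higher in descending aorta, Hoxc8 and Fbln7 (0.015% of all genes), and 1 in Superior Mesenteric Artery, Nrarp (0.0401%). The pair contrasts share vessels with the side contrast, so they are not separate evidence. The 2 trunk vessels differed from each other past the threshold for 3 of the 15, against 3.2% of all genes. In limma no gene passed in all 4 pairs in either direction, against 10 higher and 5 lower at an unadjusted p under 0.05 in each pair.

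The 5 genes that were higher in the trunk without agreement differed between the trunk vessels. Pcp4, a calmodulin-binding protein, read 10.60, 8.37 and 7.69 in Superior Mesenteric Artery and between 3.95 and 4.90 in the other 9 arrays (side difference 2.13 ± 0.40, limma adjusted p = 0.026). Without Superior Mesenteric Artery the difference turned to -0.12. Acsm3, an acyl-CoA synthetase of medium-chain fatty acids, read 6.84, 6.97 and 6.46 in descending aorta against 4.61, 4.37 and 3.78 in Superior Mesenteric Artery (1.29 ± 0.23, limma adjusted p = 0.0192).

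Angptl4, an inhibitor of lipoprotein lipase, was at 6.68 ± 0.47 in descending aorta, 5.64 ± 0.51 in ascending aorta, 5.5 ± 0.081 in Superior Mesenteric Artery and 4.06 ± 0.22 in coronary artery (1.24 ± 0.20, limma adjusted p = 0.00895). Acvr1c, a receptor of the TGF-beta family that was named after its values were seen, had the same order of vessels, from 5.25 ± 0.26 in descending aorta to 3.5 ± 0.024 in coronary artery (0.67 ± 0.13, limma adjusted p = 0.0302). The fifth was the unnamed gene model 4931406C07Rik, which ranged from 8.00 to 8.51 in descending aorta and from 5.28 to 5.48 in coronary artery. Shared adipocyte genes averaged between 8.38 and 8.97 in descending aorta and in ascending aorta replicates 2 and 3, 6.67 in ascending aorta replicate 1, and between 6.02 and 6.59 in the other 6 arrays. Their part in the differences of Acsm3, Angptl4 and Acvr1c was not tested.

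Genes lower in the trunk followed coronary artery. Coronary artery was the highest vessel for 122 of the 123, and ascending aorta for 1, Lbh. Ascending aorta lay above both trunk means in 35, between them in 48 and below both in 40 of the 123. The difference in the branch arteries and the difference in the aorta were unequal in 109 of the 123 and in 4 of the 20 higher genes, against 3.52% of all genes, in limma's test of the difference of differences. For the agreeing genes this held for 26 of 35 lower and 3 of 15 higher (Hoxc8, Fbln7 and Cmbl).

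**Figure D4:**
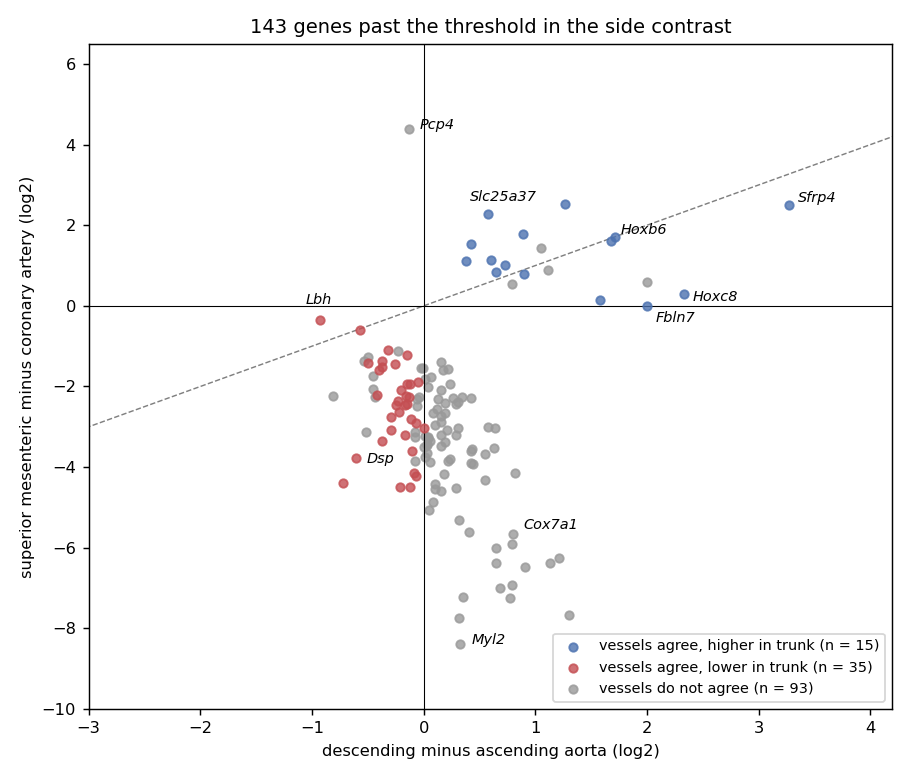
Descending minus ascending aorta (horizontal axis, log2) against Superior Mesenteric Artery minus coronary artery (vertical axis, log2) for the 143 genes past the threshold of the side contrast; the dashed line marks equal differences and the colours mark agreement of vessels. Most lower genes (red and grey) lie near 0 on the aortic axis and far below 0 on the branch axis, while Hoxb5 and Hoxb6 lie on the dashed line.

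In Golm1, Lbh and Dsp the ascending aorta mean stood apart from both trunk means. Golm1, a membrane protein of the Golgi, read 5.11, 4.89 and 5.61 in ascending aorta and 5.94, 6.26 and 6.16 in coronary artery. It read 4.84, 4.47 and 4.79 in descending aorta and 4.66, 4.61 and 4.81 in Superior Mesenteric Artery. It was the only 1 of the 123 genes without overlap of arrays, although the gap between the highest trunk and the lowest near-heart array was small. Golm1 had a side difference of -0.96 ± 0.14 (limma adjusted p = 0.00593), and it passed in all 12 fits with 1 array left out.

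Lbh, a transcription cofactor named for limb bud and heart, read 8.10, 7.86 and 7.84 in ascending aorta and 7.80, 7.51 and 8.12 in coronary artery. It read 6.96, 6.95 and 7.10 in descending aorta and 7.64, 7.32 and 7.41 in Superior Mesenteric Artery. Only Superior Mesenteric Artery replicate 1 and coronary artery replicate 2 overlapped. The side difference of Lbh was -0.64 ± 0.13 (limma adjusted p = 0.0493), and it lost the threshold in 10 of the 12 fits with 1 array left out (limma adjusted p up to 0.143).

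Dsp, the desmosomal protein desmoplakin of heart muscle and epithelia, read 4.29, 5.09 and 5.90 in ascending aorta and 7.02, 6.55 and 7.53 in coronary artery. It read 4.24, 4.81 and 4.41 in descending aorta and 3.33, 3.5 and 2.95 in Superior Mesenteric Artery. The vessels fell in 4 steps with overlap between the aortic segments. The side difference of Dsp was -2.19 ± 0.26 (limma adjusted p = 0.000731), and its smallest difference between a near-heart and a trunk vessel mean, 0.607, was the largest among the 35 genes. Dsp is also a gene of desmosomes in mesothelium, and the epicardial and mesothelial list averaged between 3.94 and 7.43 near the heart and between 5.05 and 6.74 in the trunk. Its part in the difference of Dsp was not tested.

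The other named genes on which the vessels agreed in the lower direction were mostly genes of striated muscle. Their margin of ascending aorta over the higher trunk mean was at most 0.42, in Cav3, which is close to the 0.48 of Lbh. Cav3, the muscle caveolin, read 3.86, 4.47 and 5.03 in ascending aorta, 5.88, 6.09 and 6.66 in coronary artery, and between 3.52 and 4.35 in the trunk (-1.32 ± 0.23, limma adjusted p = 0.0158). Cmya5, a muscle protein of the costamere, was at 3.58 ± 0.39 in ascending aorta, 6.48 ± 0.55 in coronary artery and between 2.95 and 3.39 in the trunk (-1.86 ± 0.20, limma adjusted p = 0.000274). Atp2a2, the calcium pump of the sarcoplasmic reticulum, was at 10.37 ± 0.20 in coronary artery and between 6.82 and 8.69 in the other 9 arrays (-1.53 ± 0.27, limma adjusted p = 0.0178).

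The promoter of Cav3 is shown beside those above because it holds the same half-site in a gene of the opposite direction. It lies at chr6:112459255-112459504 on the plus strand of GRCm38.p6, and capitals mark AGGTCA.
Cav3: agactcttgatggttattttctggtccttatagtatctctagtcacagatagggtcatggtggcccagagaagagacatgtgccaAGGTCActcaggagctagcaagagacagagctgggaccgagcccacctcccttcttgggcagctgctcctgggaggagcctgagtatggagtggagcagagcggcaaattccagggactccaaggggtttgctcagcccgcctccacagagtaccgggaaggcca
AGGTCA was present in 3 of the 25 lower genes with a promoter in the table (Actn2, Cav3 and Pde4dip), and TGATNNAT in 1 (Nppb). AGATAA, the motif of GATA factors, was present in 5 of these 25, in 0 of the 10 promoters of higher genes and in 9.99% of all promoters.

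Fhod3, a formin that assembles sarcomeres, was at 3.11 ± 0.17 in ascending aorta, 5.34 ± 0.27 in coronary artery, 2.86 ± 0.043 in descending aorta and 2.87 ± 0.35 in Superior Mesenteric Artery (limma adjusted p = 0.000349). Txlnb, a taxilin of striated muscle, was at 8.27 ± 0.31 in coronary artery and between 3.24 and 4.66 in the other 9 arrays (limma adjusted p = 8.59e-05). Tnni3k, a heart muscle kinase that binds troponin I, had a side difference of -1.14 ± 0.19, and Pde4dip, a scaffold of phosphodiesterase at the sarcomere and the centrosome, -0.85 ± 0.16 (limma adjusted p = 0.0129 and 0.0281).

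Il15 and Gpc1 are not heart muscle genes by role. Il15, a cytokine that sustains natural killer and memory T cells, was at 7.01 ± 0.51 in coronary artery, 4.93 ± 0.31 in ascending aorta and between 4.42 and 4.81 in the trunk (-1.30 ± 0.18, limma adjusted p = 0.00271). Gpc1, a heparan sulphate proteoglycan of the cell surface, was at 4.88 ± 0.29 in coronary artery, 4.05 ± 0.20 in ascending aorta and between 3.34 and 4.0 in the trunk (-0.87 ± 0.16, limma adjusted p = 0.0189). Gpc1 lost the threshold in 7 of the 12 fits with 1 array left out.

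Across the 35 genes, side differences ran in size from 0.59 to 2.56, but the smallest difference between a near-heart and a trunk vessel mean had a median of 0.16. In the 15 higher genes that median was 0.58. Against coronary artery, 35 of the 35 were lower in descending aorta (1.53% of all genes) and 33 in Superior Mesenteric Artery (2.71% of all genes), the exceptions being Lbh and Pde1c. Against ascending aorta, limma called 0 of the 35 lower in descending aorta (0.0% of all genes) and 0 lower in Superior Mesenteric Artery (0.135% of all genes). At an unadjusted p under 0.05 these counts were 3 and 4, from 5 genes: Dsp, Golm1, Gpc1, Lbh and the phosphodiesterase gene Pde1c, which was named after its values were seen. Coronary artery was above ascending aorta past the threshold in 32 of the 35, against 1.87% of all genes.

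**Figure D5:**
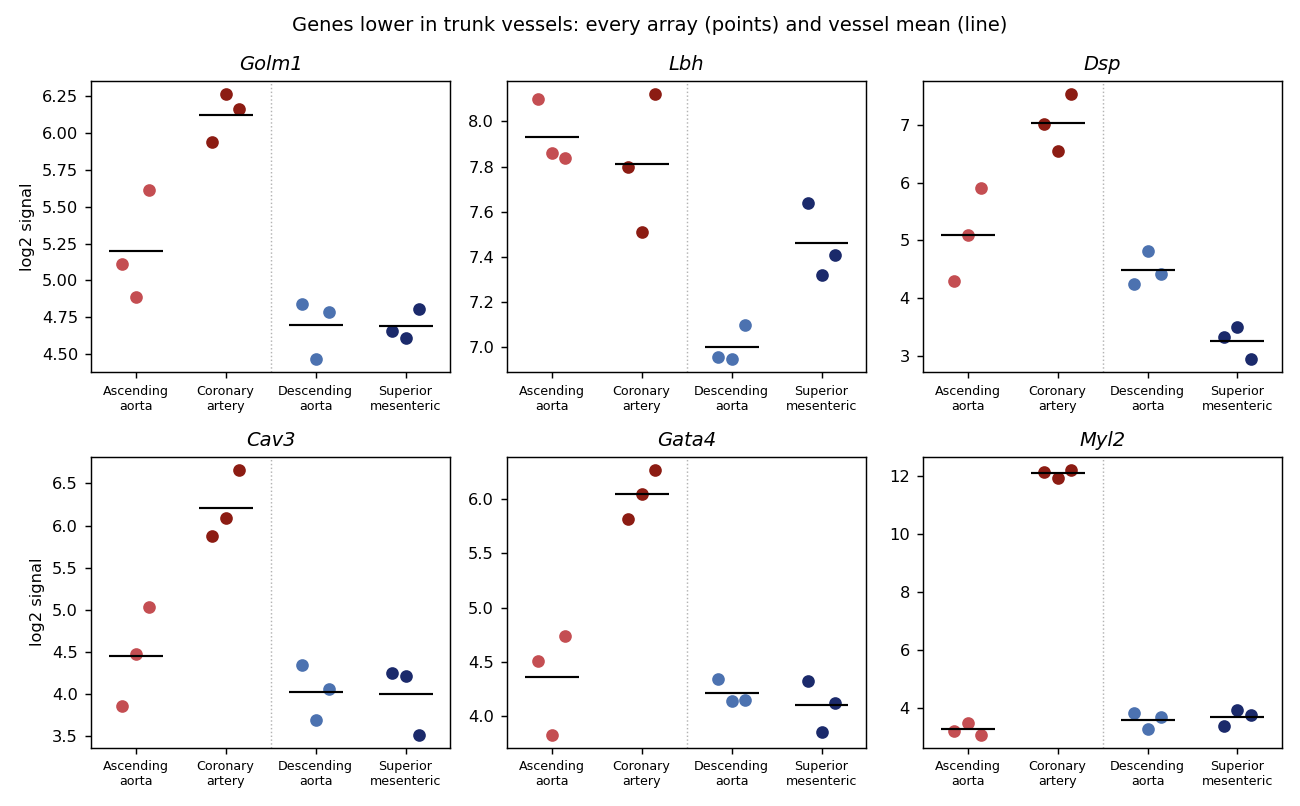
Log2 signal (vertical axis, a separate scale for each gene) of 6 genes lower in the trunk, in every array by vessel; points are arrays in replicate order and lines are vessel means. Golm1 and Lbh are high in both near-heart vessels, while Gata4 and Myl2 are high in coronary artery with ascending aorta at the level of the trunk.

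Of the 35, 7 stand in the shared, atrial or ventricular cardiomyocyte lists, of which 4 are given here with Hjv, all chosen after their values were seen. Nppb, the brain natriuretic peptide precursor, read 7.70, 6.28 and 7.89 in coronary artery and between 2.31 and 3.43 in the other 9 arrays (-2.56 ± 0.26, limma adjusted p = 0.000246). Actn2, the sarcomeric alpha-actinin, Ttn, titin, and Mybpc3, cardiac myosin-binding protein C, had side differences of -2.15 ± 0.16, -1.84 ± 0.19 and -1.68 ± 0.17. In each the margin of ascending aorta over the higher trunk mean was at most 0.10. Hjv, the bone morphogenetic protein coreceptor hemojuvelin of iron control and muscle, differed by -2.31 ± 0.22, with a margin of 0.01.

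The 88 lower genes without agreement included the strongest side differences. Myl2, the ventricular myosin light chain, read 12.13, 11.94 and 12.20 in coronary artery and between 3.09 and 3.95 in the other 9 arrays (-4.04 ± 0.15, limma adjusted p = 4.14e-08). Tnnc1, cardiac troponin C, Myl3, a further ventricular light chain, and Myoz2, a Z-disc protein, had side differences of -3.71 ± 0.38, -3.44 ± 0.30 and -3.24 ± 0.53. Descending aorta replicate 1 was above replicates 2 and 3 in Tnnc1 (5.99 against 3.09 and 3.59) and in Myoz2 (7.14 against 4.53 and 4.0). Without coronary artery the side difference of Myl2 turned to 0.37, and it was no longer a lower gene.

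Of the 32 genes measured in the shared cardiomyocyte list, 23 were lower in the trunk (median -2.03), none was higher, and 7 of 32 agreed in the lower direction (21.9%, against 10.8% of all genes). Of 12 atrial cardiomyocyte genes 4 were lower (median -1.14), among them Nppa, the atrial natriuretic peptide precursor, which is also in the shared list (-3.15 ± 0.19, limma adjusted p = 5.71e-06). Of 9 ventricular genes 3 were lower (median -0.63). Descriptions of these lists carry the same limit as the single genes: the cardiomyocyte level of the coronary artery arrays moves with the side, and its part in the differences was not tested.

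Among 22 cardiac and second heart field transcription factors, 5 were lower in the trunk and 0 higher (median -0.22). Tbx20 (-1.81 ± 0.19), Tbx5 (-1.20 ± 0.22), Hopx (-1.23 ± 0.19) and Smyd1 (-1.18 ± 0.15) are regulators of heart muscle, and ascending aorta did not lie above both trunk means in any of them. Gata4, a zinc-finger factor of heart and endoderm, read 5.82, 6.05 and 6.27 in coronary artery, 4.51, 3.83 and 4.74 in ascending aorta and between 3.85 and 4.34 in the trunk (-1.05 ± 0.17, limma adjusted p = 0.00946). Its vessels agreed, with ascending aorta replicate 2 below all trunk arrays.

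Transcription factors of the neural crest and of trunk mesoderm did not separate the sides. Of 24 neural crest and head mesenchyme factors 0 passed in limma, 1 had an unadjusted p under 0.05, and 3 agreed in the lower direction (12.5%). Six2 and Msx1, homeobox genes of head mesenchyme, had side differences of -0.37 ± 0.15 and -0.46 ± 0.23. Of 24 trunk mesoderm and splanchnic factors 0 passed in limma, 3 had an unadjusted p under 0.05, and 4 agreed in the higher direction (16.7%, against 13.2% of all genes). Foxf1, a splanchnic mesoderm factor, had a side difference of 0.87 ± 0.32 without agreement (limma adjusted p = 0.501).

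Of 16 epicardial and mesothelial genes 1 was lower in the trunk (median -0.05). Tcf21, a factor of epicardium and fibroblasts, read 7.99, 7.52 and 7.64 in coronary artery, 3.90, 5.21 and 5.72 in ascending aorta, 3.96, 3.92 and 4.53 in descending aorta and 5.01, 5.10 and 6.33 in Superior Mesenteric Artery (-1.52 ± 0.31, limma adjusted p = 0.0462). The Superior Mesenteric Artery mean (5.48) lay above the ascending aorta mean (4.94), so the vessels did not agree on Tcf21.

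Genes of the vessel wall itself gave few calls. None of 25 smooth muscle contractile genes passed in limma, and 7 had an unadjusted p under 0.05 in either direction. Ldb3 (-1.32 ± 0.27, limma adjusted p = 0.0517) and Nexn (-1.48 ± 0.44), which heart muscle also expresses, were among these 7. The list median was 0.53, with 17 of the 25 above 0, but 0 agreed in the higher direction and 2 in the lower. The list averaged 7.25 in ascending aorta, 6.41 in coronary artery, 6.91 in descending aorta and 7.31 in Superior Mesenteric Artery. In the last, replicate 1 stood at 8.95 against 6.29 and 6.69. None of 22 endothelial genes passed in limma (1 at an unadjusted p under 0.05, median 0.13).

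Of 25 collagen genes 0 passed in limma and 3 had an unadjusted p under 0.05, yet 9 agreed in the higher direction (36.0%, against 13.2% of all genes). The same held for 7 of 16 fibroblast genes (43.8%) and 9 of 31 proteoglycan and matricellular genes (29.0%), with 0 past the threshold and 1 and 5 at an unadjusted p under 0.05. Col1a1 and Col6a3, chains of fibrillar and microfibrillar collagen, had side differences of 0.49 ± 0.19 and 0.66 ± 0.27. In ascending aorta replicate 1 the collagen list was at 4.40, its lowest level in the 12 arrays, as were the fibroblast list and the proteoglycan list.

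The signalling lists held single genes. In the Wnt list 1 of 40 genes passed, Sfrp4, and in the arterial identity and Notch list 1 of 22, Nrarp. In the elastic fibre and matrix list 1 of 18 passed, Fbln7. Of 41 genes of the TGF-beta and BMP pathway 0 passed in limma and 1 had an unadjusted p under 0.05: Tgfb3, a TGF-beta ligand, with a side difference of 1.12 ± 0.47 (limma adjusted p = 0.592). Of that list 9 agreed in the lower direction (22%, against 10.8% of all genes) and 5 in the higher direction (12.2%, against 13.2%). The list median was 0.03, with 24 of 41 genes above 0.

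Receptors and channels that passed were highest in coronary artery, where the cardiomyocyte lists were also highest. The part of heart muscle in these differences was not tested. Of 31 vasoactive receptor genes 1 was lower in the trunk: Chrm2, the muscarinic M2 receptor, which read 5.44, 5.46 and 5.46 in coronary artery and between 1.86 and 3.38 in the other 9 arrays (-1.34 ± 0.21, limma adjusted p = 0.00663). Of 36 ion channel genes 2 were lower, Kcnj3 and Kcnj5, whose products form the acetylcholine-gated potassium channel of the atrium, by -1.08 ± 0.18 and -1.20 ± 0.14 (limma adjusted p = 0.013 and 0.00083). Vessels agreed on Kcnj5, by a margin of 0.13 and not on Kcnj3.

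Cytochrome oxidase subunits gave the calls in the brown adipocyte list. Of 14 brown adipocyte genes 2 were lower in the trunk, Cox7a1 and Cox8b, subunits of cytochrome oxidase that also stand in the shared cardiomyocyte list. The brown adipocyte list as a whole was not lower: 9 of its 14 genes had a side difference above 0 (median 0.14). Its mean was highest in descending aorta (6.71) and lowest in Superior Mesenteric Artery (4.13). Cox7a1 read 4.93, 6.85 and 4.94 in Superior Mesenteric Artery and between 8.96 and 11.35 in the other 9 arrays, descending aorta included (-2.43 ± 0.39, limma adjusted p = 0.00973). Without Superior Mesenteric Artery its difference turned to 0.34. Of 36 oxidative phosphorylation genes 0 passed in limma and 21 had an unadjusted p under 0.05, all with a negative difference (median -0.42), and 0 of 36 agreed in either direction. That list averaged between 7.88 and 8.10 in Superior Mesenteric Artery, 8.21 in ascending aorta replicate 1 and between 9.26 and 9.79 elsewhere.

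In all, 5 of the 43 lists had a member higher in the trunk, 9 had a member lower and 29 had none in either direction. Of the lists for neighbouring tissues, pancreatic acinar genes had a median side difference of 1.06 with 0 of 14 past the threshold in limma and 0 at an unadjusted p under 0.05, and were carried by Superior Mesenteric Artery replicate 3. The liver list had 0 of 10 past the threshold, and Hamp, which encodes hepcidin, had a side difference of -3.37 ± 0.78 without agreement (limma adjusted p = 0.0978).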

How the data were processed

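Total RNA of 4 vessels was measured on 12 Affymetrix arrays. Per the submitters' processing notes, the authors made the deposited log2 values with RMA in Partek 6.6. Of 35556 probe sets, 21789 were paired with 1 gene symbol, 1621 with several and 12146 with none. The probe set with the highest mean signal stood for each of 19938 genes (999 had more than 1). Using limma 3.58.1 (R 4.3.3), 1 mean was estimated for each vessel from all arrays, with Benjamini-Hochberg adjustment over all genes, a threshold of 0.05 and no further normalization or filter. The number of arrays limits the precision. The fit was tested on simulated data that held differences between sides only. Vessels of a side did not differ there, so genes high in a single vessel were not covered. The text names the 12 agreeing genes in each direction with the widest smallest difference between vessel means of opposite sides, the 4 non-agreeing ones with the largest side difference, called Hox genes, up to 5 called members per list, and up to 2 members with the smallest p in lists without a call. Unnamed gene models were skipped among agreeing genes, and exceptions are marked. Members, gene lists and tests were chosen with earlier results of these data known. Promoters came from RefSeq (GRCm38.p6). Alternatives covered scaling, filters, probe sets, weights, a lymphoid covariate, a replicate block, and arrays or vessels left out.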

Additional observations from a re-analysis of the deposited data

Results flagged for a closer look

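For 39 of 73 named genes the difference in the aorta (descending minus ascending) was unequal to the difference in the branch arteries (Superior Mesenteric Artery minus coronary artery) in limma's test, at an adjusted p under 0.05. Over all genes the share was 3.52%. Many of the 73 were named because they passed the side contrast, so the count partly describes that choice. Values are the aortic minus the branch difference, in log2 units. Among genes higher in the trunk this was 2.04 for Hoxc8, 2.0 for Fbln7, 1.43 for Cmbl and -4.51 for Pcp4, which was high in Superior Mesenteric Artery alone. Among genes that did not pass the side contrast it was 2.75 for Hoxc6, 2.08 for Rxrg, -3.07 for Foxf1, 2.35 for Ldb3 and 8.25 for Hamp.

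Among these genes lower in the trunk all values were above 0. In sarcomere and muscle genes they were 8.73 for Myl2, 8.06 for Tnnc1, 7.58 for Myl3, 8.03 for Myoz2, 8.97 for Smpx, 7.71 for Csrp3, 4.28 for Txlnb, 3.16 for Dsp, 2.99 for Cmya5, 2.48 for Atp2a2, 2.22 for Fhod3, 1.88 for Tnni3k, 4.15 for Actn2, 3.49 for Ttn and 3.03 for Mybpc3. In transcriptional regulators they were 3.69 for Tbx20, 3.68 for Tbx5, 2.84 for Hopx, 2.25 for Smyd1 and 1.80 for Gata4. In hormone, receptor and channel genes they were 7.67 for Nppa, 3.68 for Nppb, 4.39 for Hjv, 2.73 for Kcnj3, 2.15 for Kcnj5 and 1.81 for Chrm2. The others were 6.47 for Cox7a1, 4.86 for Cox8b, 3.58 for Stard10 and 2.14 for Il15. The cardiomyocyte list was high in coronary artery, and its part in these values was not tested. With 3 arrays a vessel, no array was tested as an outlier.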

How the results depend on the processing

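Counts are given as genes higher, lower, agreeing higher and agreeing lower in the trunk, against 20, 123, 15 and 35 in the report. They stayed within 1.5 times of these values with quantile normalization, median centring, the dimmest genes left out, other probe set rules, and an intensity trend with robust variance. With array weights they were 43, 259, 28 and 89, and with a lymphoid covariate 133, 215, 70 and 66. At an adjusted p under 0.01 they were 4, 80, 2 and 20. With a 2-fold minimum the counts of higher and agreeing higher genes were 12 and 8. With the 2 side means only, with the vessel as a random block and without coronary artery all 4 counts were 0 in limma, against 935, 564 and 921 genes at an unadjusted p under 0.05. Without ascending aorta they were 129, 375, 122 and 374, and without descending aorta 49, 293, 49 and 248. Without Superior Mesenteric Artery 141 genes were higher, and the same number agreed in the higher direction. Without replicate 1 of both aortic segments and replicate 3 of Superior Mesenteric Artery together, 8 genes agreed higher and 53 lower. With a single array left out, higher genes ranged from 7 (without descending aorta replicate 2) to 49 (without ascending aorta replicate 1), and lower genes from 91 to 274 for the same arrays. Agreeing higher genes ranged from 4 (without descending aorta replicate 3) to 31 and agreeing lower genes from 24 (without Superior Mesenteric Artery replicate 3) to 92, both highest without ascending aorta replicate 1. The cause of these changes was not tested.

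Whether arrays of the same replicate number came from the same mice is not in the labels. Deviations from vessel means correlated with a median of 0.017 over 18 pairs of the same number (-0.251 to 0.089). The median was -0.016 over 36 pairs of different number. With 3 arrays a vessel and other tissue in some arrays, these correlations cannot exclude a pairing. A replicate block gave 11 higher and 8 agreeing higher genes, with 114 lower and 30 agreeing lower.

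Of 73 named genes, 0 turned direction when a single array was left out. Without coronary artery the side difference turned to 0.37 in Myl2, 0.08 in Tnnc1, 0.06 in Myl3, 0.06 in Myoz2, 0.30 in Hopx, 0.38 in Tbx5, 0.66 in Smpx, 0.46 in Nppa, 0.52 in Csrp3, 0.36 in Stard10, 0.25 in Kcnj3, 0.03 in Rxrg and 0.29 in Hamp. Without Superior Mesenteric Artery it turned to -0.12 in Pcp4, 0.34 in Cox7a1, 0.24 in Cox8b and -0.06 in Foxf1, and without descending aorta to -0.41 in Hoxc6. Signal over background was not measured, so differences at low levels are uncertain.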

Other observations

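Further genes had no overlap between the 6 trunk and the 6 near-heart arrays without passing limma's threshold, and they were picked after their values were seen. Podn, a small leucine-rich proteoglycan of the arterial wall, ranged from 5.83 to 6.51 in the trunk and from 4.34 to 5.60 near the heart (side difference 0.86 ± 0.23, limma adjusted p = 0.175). Tmem100, an endothelial membrane protein downstream of BMP signalling, ranged from 5.36 to 6.32 and from 3.10 to 5.17 (1.24 ± 0.31, limma adjusted p = 0.149). Gclm and Txnrd1, enzymes of glutathione synthesis and thioredoxin reduction, differed by 0.77 ± 0.23 and 0.34 ± 0.12 (limma adjusted p = 0.264 and 0.449). In the lower direction Inip, a subunit of a single-stranded DNA binding complex, and Tpx2, a spindle protein, differed by -0.64 ± 0.15 and -0.50 ± 0.15 (limma adjusted p = 0.088 and 0.287).

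Red cell genes also stood higher in the trunk arrays without passing. Alas2 and Bpgm, enzymes of heme synthesis and of red cell glycolysis, differed by 1.87 ± 0.53 and 1.65 ± 0.42 (limma adjusted p = 0.23 and 0.156). Slc4a1, the anion exchanger of the red cell membrane, ranged from 4.55 to 7.61 in the trunk and from 3.27 to 4.44 near the heart (1.34 ± 0.41, limma adjusted p = 0.293).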
